A study of Mus musculus with 35 samples.

Results

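The 3 primary cell populations that were reprogrammed were set against the iPS clones made from them. These are PαS cells (PaS in the sample labels), OP cells and tail tip fibroblasts (TTF), with 1 array each. They were compared with 30 iPS clones, 10 per source, so that 33 of the 35 samples of the series were used. The members were chosen by sample title alone, and the remaining 2 samples, the ES cell lines EB-3 and RF8, are given beside the results.

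PαS cells (CD45-Ter119-PDGFRα+Sca-1+, called MSC in the labels) and OP cells (CD45-Ter119-PDGFRα-Sca-1-, called osteo-progenitors) were sorted from bone marrow of adult Nanog-reporter mice and expanded before transduction. TTF grew out of minced tails of such mice and were not sorted. From each source, 5 clones had received retroviral Oct3/4, Sox2, Klf4 and c-Myc (4F, named 4F-PαS-iPS for PαS and likewise for OP and TTF), and 5 the same factors without c-Myc (3F). All clones were selected with puromycin through the Nanog reporter and were grown in ES medium with LIF on mitomycin-treated SNL feeder cells, a mouse fibroblast line. The reporter transgene was shared by sources and clones. How many animals each source array stands for, and whether its RNA came from the cells at transduction, is not given in the sources used here.

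Fibroblasts and marrow stromal cells of mesenchymal origin secrete collagen-rich matrix, adhere to it through integrins and keep epithelial junction genes silent. Reprogramming by the transduced factors replaces this state with the self-sustaining circuit of Oct3/4, Sox2 and Nanog, and cells pass through a mesenchymal to epithelial transition on the way. Genes of the germline that are methylated in somatic cells also become active in pluripotent cells.

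Values are log2 of the Cy3 intensity of a probe over the 75th percentile of its array, so that 0 is the 75th percentile and a step of 1 is a doubling. A difference is the level in a source minus the mean level of its own 10 clones, and n = 3 sources in each mean difference. The limma fit tested whether the mean of the 3 differences was other than 0, with Benjamini-Hochberg adjustment over 26734 probes. A gene changed when its adjusted p was under 0.05 and its mean difference at least 2-fold. It was shared when, beyond that, each source differed by at least 2-fold in the same direction. The p-values measure the spread between 3 different cell types with 1 array each and not that between replicates of a cell type.

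All 30 clones were scanned in 1 session on 8 slides, whereas the 3 sources lay together with EB-3 on 1 other slide in another session and were processed with another version of Feature Extraction, the image analysis program. The difference between sources and clones therefore cannot be told apart from slide and session. EB-3 gives the only contrast within the sources' slide, and RF8 was alone in another session again. Between 56.6% and 65.7% of the probes were well above background on each clone array and between 63.0% and 64.3% on each source array. In these bulk samples, fewer cells of a type and less RNA per cell cannot be told apart.

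Of 17760 genes tested, 819 (4.61%) were higher in the source cells and 2011 (11.3%) were lower, which made 15.9% changed in either direction. All 819 higher genes and 2009 of the 2011 lower genes were shared by the 3 sources. The former are called lost on reprogramming here and the latter gained. A gene passes this test only when its 3 differences are large for their spread, so that the sharing follows largely from the test. With the 33 arrays pooled in 7 groups, 1854 of 4355 higher probes and 3666 of 6230 lower probes were shared. The median difference was 2.33 over the lost genes and −3.52 over the gained genes, against −0.12 over all genes tested.

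The 3 sources and the 30 clones did not overlap in 641 lost genes (3.61% of all genes tested) and in 1473 gained genes (8.29%). A gene entered the test when it was well above background on all 3 sources or on all 5 arrays of at least 1 of the 6 clone groups, so that a gene silent on one side entered through the other. All 819 lost genes were well above background on the 3 sources, and 557 of the 819 were still well above background on all 30 clones. No clone was well above background in 21 lost genes. Of the 2009 gained genes, 674 were well above background on no source and 880 on all 3. These counts cannot be compared between the directions, because absence from 30 clones is a stricter condition than absence from 3 sources. The entry rule also differed, as it asked for all 3 sources on the source side but for only 1 of the 6 groups on the clone side. Of the genes with several tested probes that changed, 812 of 888 had all probes on the same side and 486 had the same call in all probes.

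**Figure D1:**
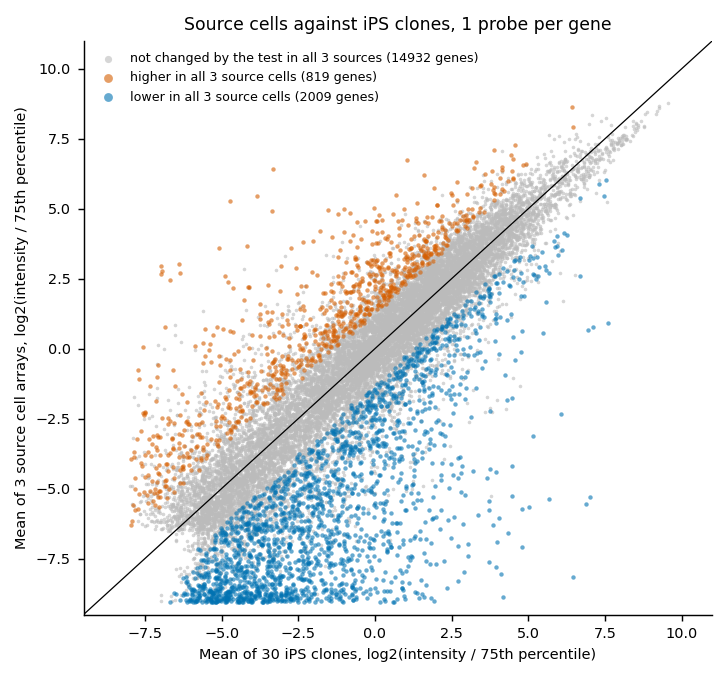
Mean level of each of 17760 genes on the 3 source cell arrays against its mean on the 30 iPS clones, both as log2 of intensity over the 75th percentile of the array, with the line of equal levels drawn. The 819 genes lost and the 2009 genes gained in common by the 3 sources are coloured, and many gained genes start from the floor of the source arrays.

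The 12 named genes of each direction had the largest mean differences among shared genes without overlap between the 3 sources and the 30 clones, so that their lack of overlap is the rule and not a result. Among the lost genes, Thbs4 (probe at mm7 chr13:89814004-89814063), a thrombospondin of tendon and muscle matrix, had a level of 5.32 in PαS, 4.27 in OP and 6.24 in TTF, whereas the lowest, median and highest clone were at −7.79, −4.55 and −1.60. The mean difference was 9.99 (SE 0.51, limma adjusted p = 0.00728). Cilp, a cartilage intermediate layer protein, was at 1.93, 3.56 and 3.36 in the sources in the same order and at −8.58 to −5.36 in the clones. Its measured difference was 9.92 (SE 0.49, limma adjusted p = 0.00717), but only 5 of 30 clones were well above background, so that the clone mean is mostly signal near the floor and the size of the difference is uncertain.

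Ctsk, the collagen-degrading protease cathepsin K, was nearly the same in the 3 sources (2.45, 2.94 and 2.62) and lay between −8.41 and −4.10 in the clones, where only 5 of 30 arrays were well above background. Meox2, a homeobox factor of mesoderm, was at 2.55, 2.56 and 2.23 in the sources against a median of −7.20 and a highest clone value of −3.04, with 4 of 30 clones well above background. The 3 sources thus lay close together in both genes, with differences of 9.63 (SE 0.26) and 9.14 (SE 0.35). The other tested probe of Meox2 gave a smaller difference of 5.58. F13a1, the A chain of coagulation factor XIII, was at 3.37, 1.49 and 3.48 in the sources and well above background on no clone, so that it was at least 391-fold higher in the source cells (limma adjusted p = 0.00717).

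The other genes named by the same rule were Comp, Ccn5, Rspo2, Srpx2, S100b, Aspn and Dpt. Rspo2 codes for an R-spondin that amplifies Wnt signals, and Aspn and Dpt code for small matrix proteins of connective tissue. Their differences ran from 7.62 to 9.74, and Aspn and Dpt were well above background on 3 and 2 clones, so that their differences too rest mostly on signal near the floor. S100b spread widely between the sources, at 3.36 in PαS, 6.45 in OP and 1.19 in TTF, with its highest clone at −2.92.

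**Figure D2:**
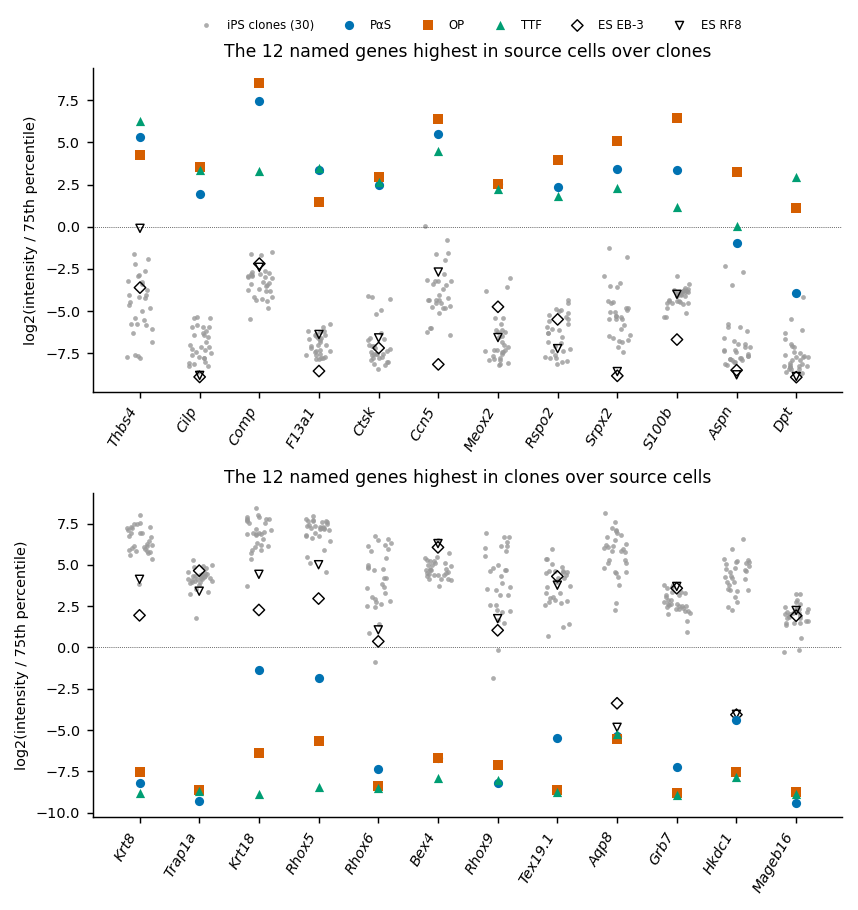
Levels of the 12 lost (top) and 12 gained (bottom) genes with the largest mean differences among shared genes chosen for no overlap between sources and clones, as log2 of intensity over the 75th percentile. Grey points are the 30 iPS clones, coloured symbols the 3 sources and open symbols the 2 ES cell arrays. The spread between the sources is wide in S100b and Krt18 and narrow in Ctsk and Meox2, and EB-3 and RF8 lie far below the clones in Aqp8 and Hkdc1.

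Of 21 collagens tested, 9 were higher in the source cells and 3 were lower, with a median difference of 3.1. This count and those of the gene lists that follow stand beside 4.61% of all genes higher and 11.3% lower. Col5a2, a chain of fibrillar collagen V, was at 5.65 in PαS, 6.29 in OP and 3.03 in TTF and at −3.52 to 1.61 in the clones, with a difference of 6.0 (SE 0.87, limma adjusted p = 0.0279). Col1a1, the main chain of bone and skin collagen, was at 6.61, 7.03 and 5.36, and its clones reached from 1.61 to 6.08. TTF thus lay within the clone range for Col1a1, whose difference was 2.51 (SE 0.46, limma adjusted p = 0.0413).

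The 3 lower collagens were Col4a1 and Col4a2, which form the network of basement membranes, and Col18a1, another basement membrane collagen. Col4a1 was at 2.81 in PαS, −1.86 in OP and 0.76 in TTF, all below the lowest clone at 3.46. Set against EB-3 on the same slide, the mean differences of Col4a1 (3.04) and Col4a2 (3.65) were positive and not negative. For Col4a1, EB-3 at −2.47 was only a little below OP, and RF8 at −0.63 was above OP.

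Among 33 other matrix proteins, 11 were higher and none was lower, with a median of 2.29. Fmod, the collagen-binding fibromodulin, had a difference of 8.28 (SE 1.33). Lox, the enzyme that crosslinks collagen and elastin, was at 5.70, 6.0 and 3.15 in the sources and at −3.78 to 1.11 in the clones, with a difference of 6.48 (SE 0.69, limma adjusted p = 0.016). Of 25 matrix proteases and inhibitors, 7 were higher and none was lower, among them Adamts5, Adamts2 and Serpinf1 beside Ctsk.

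Of 35 mesenchymal transcription factors, 7 were higher, 1 was lower and 27 did not pass the test, with a median of 1.57. Snai2, a repressor of E-cadherin, was at 4.57 in PαS, 5.73 in OP and 3.37 in TTF against −0.41 to 3.26 in the clones, a difference of 3.81 (SE 0.49, limma adjusted p = 0.0229). Zeb1 and Zeb2, which act on the same target, were higher by 1.54 (SE 0.30) and 3.61 (SE 0.32), and Klf9 was the lower member.

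Of 40 genes of TGF-β signalling and injury response, 7 were higher and none was lower, with a median of 2.24. They included Ccn5 (difference 9.30) and the marrow chemokine Cxcl12 (4.86). None of 24 contractile and actin genes was higher and only Des, the muscle intermediate filament gene, was lower, against 4.61% and 11.3% of all genes, and their median difference was 0.68. At least 2-fold above and outside the range of their own clones were 15 of the 24 in PαS, 6 in OP and 1 in TTF, against 17.4%, 18.7% and 18.8% of all genes. Of 22 genes of the p53 and Ink4 pathways 3 were higher, namely Cdkn2c, an inhibitor of Cdk4 and Cdk6, Ccnd1 and Rbl2, with a median of 0.02.

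Of 25 mesenchymal surface markers, 5 were higher, 1 (Mcam) was lower and 19 did not pass the test. Pdgfrb was at 4.93, 4.52 and 2.91 in the sources and at −3.11 to 2.27 in the clones, a difference of 4.04 (SE 0.56, limma adjusted p = 0.0258). Pdgfra, the gene of the sorted receptor, was at 0.98 in PαS, 1.58 in OP and 0.59 in TTF, and the clones ran from −0.50 to 3.35 around all 3 (mean difference −0.22, SE 0.46, limma adjusted p = 0.754). The array labelled PDGFRα- was therefore not lower in Pdgfra RNA than the one labelled PDGFRα+.

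Ly6a, which codes for Sca-1, was at 5.58 in PαS, 3.54 in OP and 3.53 in TTF, with clones from −1.14 to 4.74. It was highest in the Sca-1+ population, but its mean difference of 2.68 (SE 0.83) did not pass the test (limma adjusted p = 0.0997). EB-3 was at −5.97 for Pdgfra and −6.90 for Ly6a, below every clone, while RF8 was at −0.80 and −0.09. The RNA of feeder cells in the clone samples is not measured separately on these arrays, and its part in the clone levels of mesenchymal genes was not tested.

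**Figure D3:**
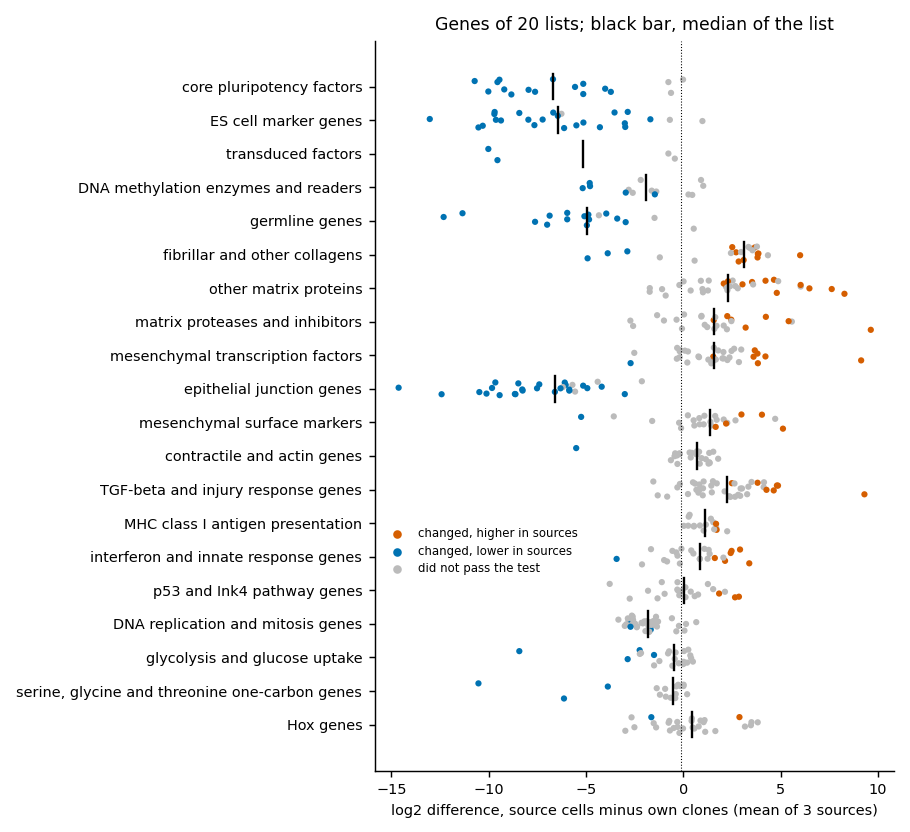
Mean log2 difference, source cells minus own clones, of each tested gene in 20 lists, with a black bar at the median of each list and a dotted line at the median of all genes. Coloured points changed (orange higher and blue lower in the sources) and grey points did not pass the test. Epithelial, pluripotency, ES marker and germline genes lie to the left and matrix genes to the right.

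Of 29 epithelial junction genes, 24 were lower in the source cells and none was higher, with a median difference of −6.60. Krt8 (probe at mm7 chr15:101983072-101983131), a keratin of simple epithelia, was at −8.20, −7.53 and −8.78 in PαS, OP and TTF and at 3.83 to 8.04 in the clones, with a median of 6.37. It was well above background on no source and on all 30 clones, and thus at least 9534-fold higher in the clones (limma adjusted p = 0.00682).

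Its partner Krt18 differed between the sources, at −1.40 in PαS, −6.41 in OP and −8.85 in TTF, though all 3 stayed below the lowest clone at 3.74. Cdh1, the E-cadherin gene, was at −8.19, −8.55 and −5.98 in the sources and at −0.66 to 2.95 in the clones, a difference of −9.83 (SE 0.63, limma adjusted p = 0.00826). In PαS and OP it lay under the lowest signal well above background on the array (−7.17 and −6.48). The size of its difference is therefore uncertain. Epcam, an adhesion molecule of epithelial and pluripotent cells, was at least 346-fold higher in the clones. Several claudins, the epithelial splicing regulator Esrp1 and the transcription factor Grhl2 were on the same side.

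Of 17 core pluripotency factors, 14 were lower in the source cells and none was higher, with a median of −6.70. Pou5f1, which codes for Oct3/4 (probe at mm7 chr17:33612047-33612107), was at −7.18, −6.57 and −7.20 in PαS, OP and TTF and at −1.96 to 5.22 in the clones, with a median of 3.03. It was well above background on no source, and the clones were at least 888-fold higher with the background treatment used here. An exact two-sided permutation test over the 33 arrays gave p = 0.000183, the smallest that 5456 arrangements allow. However, it takes the arrays as exchangeable although the sources lay on another slide than the clones. It also ignores which source each clone came from.

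Sox2 and Nanog were also well above background on no source, but on only 27 of 30 clones each. Sox2 was at −8.46, −8.68 and −8.76 in the sources and at −8.21 to 3.23 in the clones, with a median of 1.96. Nanog was at −9.36, −7.12 and −8.54 in the sources, and its lowest clone at −8.24 fell between them, while the median clone was at 1.62. The clones as a whole were at least 204-fold higher in Sox2 and at least 197-fold higher in Nanog (limma adjusted p = 0.00728 and 0.0158).

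The other transduced factors were already present in the source cells. Klf4 was at 5.79 in PαS, 4.68 in OP and 3.53 in TTF, and the clones ran from 3.11 to 6.56, so that the groups overlapped (mean difference −0.77, SE 0.52, limma adjusted p = 0.336). None of the 3 Myc probes passed the test, with mean differences of −0.44, 0.91 and −1.39 (limma adjusted p = 0.678, 0.119 and 0.214). The probes were not placed in coding sequence or UTR here, and a probe in coding sequence reads the viral as well as the cellular transcript. Klf2 and Zfp281 were the remaining pluripotency genes that did not pass the test, Klf2 being at 5.98 to 6.5 in the sources and 5.81 to 6.65 in the clones.

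Of 25 ES cell marker genes, 22 were lower in the sources and none was higher, with a median of −6.45. Tdh, the threonine dehydrogenase of mouse ES cells, was at −6.06, −5.53 and −5.64 in the sources and at 0.03 to 6.94 in the clones, a difference of −10.53 (SE 0.35, limma adjusted p = 0.00682). Zfp42 was at least 313-fold higher in the clones. Among genes of glucose uptake and glycolysis 4 of 22 were lower (18.2%, against 11.3% of all genes) and none was higher, and Slc2a3, the high-affinity glucose transporter, stood out at −8.43 (SE 0.58). Over the alternative settings the difference of Slc2a3 ran from −9.18 to −3.72. Of 16 serine, glycine and threonine one-carbon genes 3 were lower, namely Tdh, Gldc and Shmt1, against 11.3% of all genes.

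Of 17 germline genes, 14 were lower in the source cells and none was higher, with a median of −4.96. Promoters of such genes are known for CpG-rich sequence and for E-boxes with the letters CACGTG, so the RefSeq promoter windows (GRCm38.p6) of the list were read. The windows of 3 changed genes are shown because they hold it. Each runs from 250 bases to 1 base before the annotated start, 5′ to 3′ on the strand of the gene, with CACGTG in capitals. They lie at chr10:88459337-88459586 on the plus strand (Sycp3), chr3:95559427-95559676 on the plus strand (Hormad1) and chrX:134476491-134476740 on the minus strand (Taf7l).
Sycp3: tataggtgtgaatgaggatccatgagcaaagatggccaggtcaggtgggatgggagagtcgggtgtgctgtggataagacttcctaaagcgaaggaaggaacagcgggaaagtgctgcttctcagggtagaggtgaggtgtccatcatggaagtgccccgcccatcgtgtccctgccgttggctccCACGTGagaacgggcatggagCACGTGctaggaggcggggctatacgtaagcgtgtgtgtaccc
Hormad1: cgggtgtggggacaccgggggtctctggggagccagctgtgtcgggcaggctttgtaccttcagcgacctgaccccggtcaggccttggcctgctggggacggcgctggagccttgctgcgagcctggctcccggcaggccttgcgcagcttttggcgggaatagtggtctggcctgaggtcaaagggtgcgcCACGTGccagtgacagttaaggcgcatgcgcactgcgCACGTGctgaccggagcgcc
Taf7l: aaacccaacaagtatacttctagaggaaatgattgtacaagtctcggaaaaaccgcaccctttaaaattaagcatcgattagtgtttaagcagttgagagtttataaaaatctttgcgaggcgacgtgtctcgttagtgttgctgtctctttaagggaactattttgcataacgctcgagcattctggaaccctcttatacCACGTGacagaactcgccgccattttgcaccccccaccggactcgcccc

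Sycp3, a protein of the meiotic chromosome axis, has the hexamer 64 and 43 bases before its start, Hormad1, another axis protein, 57 and 20 bases before, and Taf7l, a testis paralogue of a general transcription factor, 49 bases before. CACGTG reads the same on both strands and holds a CG. It was present within the 300-base windows, which also include the first bases after the start, of 9 of the 14 changed germline genes (64.3%) and of 2 of the 3 that did not change, Piwil2 having no window in the table. Among all tested genes with a promoter in the table, 1327 of 11807 (11.2%) held it. The match is a description of the letters, was 1 of 7 motifs counted, and no methylation was read here.

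Sycp3 was at −8.20 in PαS, −8.72 in OP and −8.81 in TTF and well above background on none of them, while 26 of 30 clones were well above it, with a median of −2.06. Hormad1 had the same pattern, with a clone median of −2.24, and the lowest clones of both genes fell among the sources. Taf7l was at −6.42, −7.01 and −8.73 against −3.95 to 1.57 in the clones, with no overlap. The clones were at least 17.7-fold higher in Sycp3 and at least 16.0-fold higher in Hormad1 (limma adjusted p = 0.00728 and 0.0137).

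The X-linked Rhox homeobox genes, known from the reproductive tract and placenta, were among the most strongly gained genes. Rhox5 was at −1.82, −5.69 and −8.42 in the sources and at 4.58 to 7.94 in the clones, and Rhox6 and Rhox9 were well above background on no source and at least 1855-fold and 1661-fold higher in the clones. Trap1a, a tumour rejection antigen gene on the X, was at least 1934-fold higher. Genes on the X made up 5.02% of the gained, 3.30% of the lost and 3.51% of all tested genes with a position.

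Of 14 enzymes and readers of DNA methylation, 5 were lower and none was higher, with a median of −1.91. Dnmt3b, a de novo methyltransferase, was at −4.28, −3.78 and −3.93 in the sources and at −1.24 to 2.63 in the clones, a difference of −4.80 (SE 0.40, limma adjusted p = 0.0111). Dnmt3l (−5.17), its cofactor, Tet1 (−2.96), which oxidises methylcytosine, and the imprint-keeping pair Zfp57 (−4.81) and Trim28 (−1.47) were on the same side.

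Immune and proliferation genes spread between the sources. Of 16 genes of MHC class I presentation only Tap2 and Erap1 were higher, with a list median of 1.1. H2-K1 was at 3.96 in PαS, 5.40 in OP and 7.29 in TTF, with clones from 3.75 to 5.18, so that PαS fell inside the clone range and TTF far above it (limma adjusted p = 0.342). Of 25 interferon and innate response genes, 6 were higher and 1 (Ifitm1) was lower, with a median of 0.84. By source this median was −0.57 in PαS, 1.14 in OP and 1.86 in TTF. That of the MHC class I list was 0.14, 0.88 and 2.21. Tlr4, the endotoxin receptor, was higher by 3.39 (SE 0.42).

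Of 47 DNA replication and mitosis genes, 3 (Blm, Cdc25a and Rfc4) were lower, against 11.3% of all genes, none was higher and the median was −1.81. The median was −0.52 in PαS, −3.57 in OP and −1.53 in TTF. At least 2-fold below and outside the range of their own clones were 13 of the 47 genes in PαS, 45 in OP and 34 in TTF, against 25.2%, 21.6% and 27.2% of all genes. With 1 array a source there is no spread within a source, and these differences between sources were not tested.

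Each source was then set beside its own 10 clones alone, with no test. At least 2-fold above and outside the range of its own clones were 3094 genes in PαS (17.4%), 3324 in OP (18.7%) and 3343 in TTF (18.8%). At least 2-fold below were 4476 in PαS (25.2%), 3837 in OP (21.6%) and 4828 in TTF (27.2%). All 3 sources were above in 994 genes, which is 32.1% of the PαS genes, 29.9% of the OP genes and 29.7% of the TTF genes. All 3 were below in 1988, or 44.4%, 51.8% and 41.2%. The entry rule favours overlap above the clones, here and in the pairs that follow. A gene well above background in some but not all sources entered only through a clone group. Genes found in some sources only may therefore be undercounted. Without that filter the probes above were 5117 in PαS, 6029 in OP and 6035 in TTF. With it they were 4596, 5040 and 5025. The overlap without the filter was not counted.

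The 2 marrow populations shared more of the genes above their clones with each other than with TTF, which did not hold for the genes below. PαS and OP were both above their clones in 1827 genes (59.0% of PαS and 55% of OP), whereas PαS and TTF were in 1401 (45.3% and 41.9%) and OP and TTF in 1597 (48.0% and 47.8%). Below their clones PαS and OP shared 2609 (58.3% and 68.0%), PαS and TTF 2801 (62.6% and 58.0%) and OP and TTF 2679 (69.8% and 55.5%). Across genes, the source arrays correlated at r = 0.936 for PαS with OP, 0.884 for PαS with TTF and 0.875 for OP with TTF, and each source with the mean of its own clones at 0.834, 0.821 and 0.805. The mean profiles of the 3 clone sets correlated at 0.987 to 0.994. These correlations are over 26734 probes, which are not independent replicates, and the arrays of each kind share slides.

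TTF carried genes of macrophages, which are outside the fibroblast label. Of 16 tested blood and macrophage markers (of 25 listed), 9 were above and 3 below the TTF clones, against 18.8% and 27.2% of all genes, and the level of their summed intensity was 9.52 in TTF against 2.99 in PαS, 4.26 in OP and 1.63 to 3.71 in the 30 clones. Csf1r, the macrophage growth factor receptor, was at 5.74 in TTF, −1.52 in PαS and −3.72 in OP, and Cd52 was at 6.21, −9.41 and −8.75. Lyz2, which codes for lysozyme, was the only marker of the list higher in all 3 sources (2.56, 4.13 and 7.68 in PαS, OP and TTF, with clones from −2.45 to −0.03, limma adjusted p = 0.0481).

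The genes furthest above their own clones that met this rule in TTF only were Cd300c2, Ctss, Clec4n and Cd52, genes known from blood cells. Ptprc, which codes for CD45, did not enter the test. H2-K1 was also highest in TTF, as given above. No sort removed CD45+ cells from TTF, and the part of macrophages in the TTF values was not tested. TTF was the only source to meet the rule below its own clones in Crct1, Pitx1, Rhox2a and Pkp1, of which Pitx1, a hindlimb regulator, was at 3.52 in PαS, 3.68 in OP and −8.89 in TTF.

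OP carried genes of cartilage. Of 6 tested cartilage markers the median difference from own clones was 7.10 in OP, and the level of their summed intensity was 9.57 in OP, 7.56 in PαS and 3.33 in TTF against −0.08 to 2.08 in the clones. Col2a1, the cartilage collagen, was at 8.47 in OP, 3.49 in PαS and −2.25 in TTF, and Acan, the cartilage proteoglycan aggrecan, was at 4.57, −2.65 and −5.55. Ucma, Cnmd, Cytl1 and Ecrg4 were furthest above the clones among genes that met the rule in OP only, and the first 3 are known from chondrocytes. Of 8 tested bone markers, 5 were above and 2 below the OP clones, against 18.7% and 21.6% of all genes, and the level of their summed intensity was 8.46 in OP, 7.72 in PαS and 8.15 in TTF against 4.74 to 7.56 in the clones. Bglap, which codes for osteocalcin, was at 4.25 in OP, −0.99 in PαS and −3.46 in TTF, and Alpl at 4.50, −2.77 and −4.92.

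PαS was the only source 2-fold above and outside the range of its own clones in Slurp1, Has1 and Serpinb2, among other genes, where Has1 is a hyaluronan synthase. Slurp1 was at 2.32 in PαS and 1.63 in OP, and OP missed the rule through its highest clone at 2.31. Has1 was at 0.38 in PαS, −5.76 in OP and −6.10 in TTF, with all 30 clones between −7.34 and −4.88. By the same rule PαS was the only source below its clones in Calca, Ddx4, Patl2 and Cphx1, although OP lay within the range of its clones at a difference from their mean of −4.43 in Patl2 and −4.36 in Ddx4, and TTF at −3.69 in Cphx1. The level of the summed intensity of 6 fat markers was 6.4 in TTF, 3.72 in PαS and 3.54 in OP against 0.51 to 3.14 in the clones. Fabp4, the fatty acid carrier of adipocytes and macrophages, was at 4.92 in TTF, 2.73 in PαS and 2.14 in OP, and it was higher than the clones in the 3 sources together (3.92, SE 0.65, limma adjusted p = 0.0349).

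Hox genes, which mark position along the body axis, gave few common changes. Of 29 tested, 1 (Hoxc12) was higher and 1 (Hoxb2) was lower, against 4.61% and 11.3% of all genes, and Hoxb2 turned to 2.92 against EB-3 on the same slide. The median difference of the list was 1.33 in PαS, 0.27 in OP and −1.07 in TTF. Hoxb13, the most posterior gene of its cluster, was at 1.87 in TTF and near the floor in PαS (−9.42) and OP (−8.80), with clones from −6.81 to −1.35. Hoxa11, a gene of the limb, was at 1.65 in PαS, 1.82 in OP and −3.14 in TTF. With 1 array each, these orders carry no test.

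**Figure D4:**
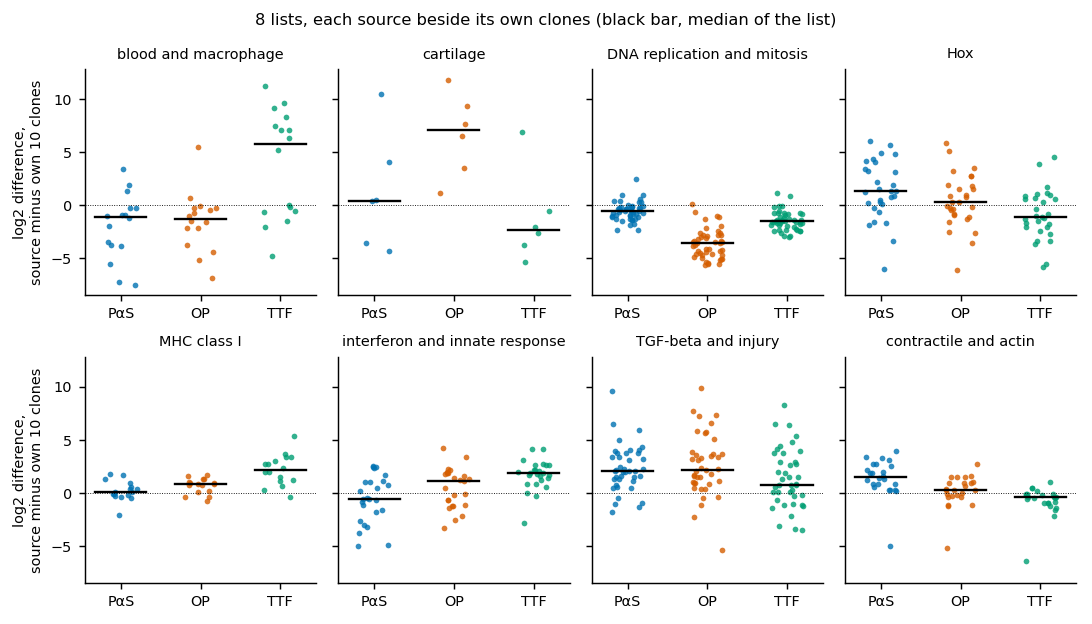
Log2 difference of each source from the mean of its own 10 clones, for the tested genes of 8 lists, with a black bar at the median of the list. Macrophage markers lie high in TTF (median 5.75) and low in PαS (−1.13) and OP (−1.28), cartilage markers lie high in OP (7.10), and replication and mitosis genes lie lowest in OP (−3.57).

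The clones were then read one by one over the shared genes, which had been chosen on the mean of these clones, so that this is a description. Over the 819 lost genes the median difference of a clone from the mean of the sources was −2.90 to −1.87, and over the 2009 gained genes 2.21 to 4.09, with medians over clones of −2.34 and 3.60. The 4F-OP-iPS clones #1, #2 and #3 (2.21, 2.41 and 2.38) and 4F-TTF-iPS #1 (2.65) had gained least, and 4F-TTF-iPS #5 had lost least (−1.87). Over the gained genes the group means were 2.87 ± 0.76 (SD, n = 5) in 4F-OP-iPS and 3.23 ± 0.38 in 4F-TTF-iPS against 3.57 to 3.83 in the other 4 groups.

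A few lost genes had a clone group near the level of the sources. Cbr2, a carbonyl reductase, was at a mean of 4.43 in 4F-TTF-iPS against 4.58 over the sources, a difference of −0.14, although its clones as a whole ran from −3.87 to 5.87 and it was higher in the sources by 4.56 (SE 0.61, limma adjusted p = 0.0238). Tha1, a threonine aldolase, was at −3.18 in 4F-OP-iPS against −2.87 over the sources. In Olfr1364, Zfp677 and Tnfaip6 the nearest group differed from the sources by −0.69, −0.70 and −0.76. Apart from Cbr2 these genes had source means below the 75th percentile of the arrays, and the sign of Olfr1364 turned with normexp background correction (−0.254).

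ES cells, which the test did not use, lay on the clones' side in most shared genes. EB-3 was at least 2-fold below all 3 sources in 683 of the 819 lost genes and RF8 in 618. EB-3, on the sources' slide, was below every clone in 377 of these genes, within their range in 375 and above all of them in 67. RF8 was below every clone in 143, within the range in 573 and above in 103. Over the 2009 gained genes both ES arrays were at least 2-fold above all 3 sources in 1364. The median gap from sources to ES was 3.40 (EB-3) and 2.47 (RF8) over the lost and −3.18 and −3.35 over the gained genes. The lost and gained genes were chosen on the levels of these same source arrays, which alone favours such gaps. The share of all tested genes that met these rules was not counted.

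The ES arrays parted from the clones in certain groups of genes. All 22 changed ES cell markers, all 24 changed epithelial genes and 13 of the 14 changed pluripotency genes were at least 2-fold above every source on both ES arrays. In contrast, 212 of the 2009 gained genes were lower on both ES arrays than in every clone. They included all 5 changed markers of primitive endoderm, the extraembryonic lineage that lines the blastocoel (Sox17, Gata6, Gata4, Col4a1 and Lamb1).

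Sox17 was at −7.14, −6.99 and −6.99 in PαS, OP and TTF, at 0.51 to 4.07 in the 30 clones and at −4.89 in EB-3 and −3.25 in RF8. Every clone was above every source and both ES arrays, and the clones were at least 704-fold above the sources (limma adjusted p = 0.00682). Gata6 was at 1.20 to 5.16 in the clones against −5.13 to −2.94 in the sources and −2.77 and −2.74 in the ES arrays. The level of the summed intensity of the 10 tested markers was 4.88 to 8.49 in the clones, 3.73 to 5.36 in the sources, 1.85 in EB-3 and 2.72 in RF8, and the part of such cells in the clone samples was not tested.

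Of the 9 trophectoderm markers tested, 8 were lower in the sources, of which both ES arrays were below every clone in 1. Aqp8, a water channel, and Hkdc1, a hexokinase-like gene, were among the 12 most gained genes, at 2.27 to 8.11 and 2.24 to 6.56 in the clones, but were at −3.38 and −4.07 in EB-3 and −4.83 and −4.05 in RF8. Of 13 endothelial markers 8 were lower in the sources, among them Flt1 and Cdh5, the latter with a difference of 0.041 when EB-3 took the place of the clones. Of the other marker lists, 2 of 8 bone, 3 of 6 fat, 1 of 6 cartilage, 2 of 4 skeletal muscle, 3 of 8 keratinocyte and 2 of 7 nerve markers changed in either direction, against 15.9% of all genes.

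EB-3 and RF8 also differed from each other in matrix genes. All 9 higher collagens were well above background on all 30 clones, EB-3 was below every clone in 9 of them and RF8 in 0. Col5a2 was at −8.12 in EB-3 and −0.89 in RF8, the latter within the clone range. Of the 11 higher genes among other matrix proteins, EB-3 was below every clone in 9 and RF8 in 4. The study's methods refer to earlier work for ES cell culture, and whether feeder cells were present in the ES samples is not given in the sources used here. The part of feeder cells in these levels was not tested.

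**Figure D5:**
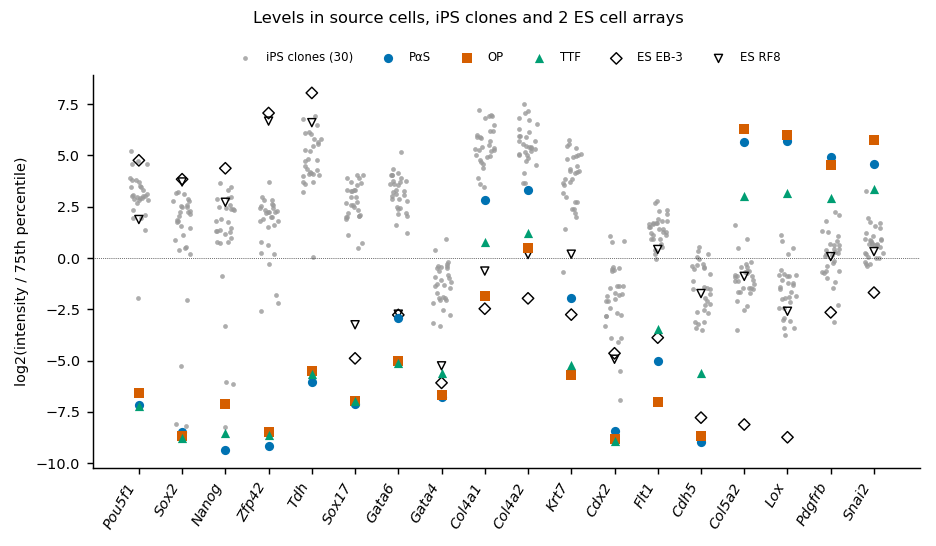
Levels of 18 genes, as log2 of intensity over the 75th percentile, in the 3 sources (coloured symbols), the 30 iPS clones (grey points) and the ES cell arrays EB-3 and RF8 (open symbols). ES arrays lie far above every source for Pou5f1, Sox2, Nanog, Zfp42 and Tdh, below every clone for Sox17, Gata6, Gata4, Col4a1 and Col4a2, and apart from each other for Col5a2 and Lox.

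The test had 3 differences a gene, and its counts fell when a source was left out. Without PαS no probe passed (limma, smallest adjusted p of 0.0671), whereas 64 higher and 744 lower probes passed without OP and 812 and 2021 without TTF, against 1297 and 2894 with all 3. At an unadjusted p under 0.05 the probes numbered 7139 without PαS, 6337 without OP, 9123 without TTF and 10075 with all 3. With quantile normalization in place of the 75th percentile, 45.0% of the changed probes were higher in the sources against 30.9% here. Set against EB-3 on the same slide instead of the clones, 5657 probes were higher and 7238 lower in the sources by the same rule, with no spread of EB-3 itself in that test.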

How the data were processed

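Total RNA was labelled with Cy3 and hybridised to Agilent mouse oligo arrays (1 colour). The authors deposited Feature Extraction files per array, with background-subtracted processed intensity, and a table of log2 values. The deposited intensity was used. Feature Extraction was version 10.5.1.1 for clones, 10.7.3.1 for sources and EB-3, and 9.5.3.1 for RF8, per the file headers, and probe positions are those of mm7. The deposited log2 table served as an alternative.

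From 41174 gene probes, each log2 value was centred on its array's 75th percentile. Flagged outlier spots (348 probe values) were left out. Symbols came from RefSeq by accession (23079 probes), symbol (6582) or synonym (3074), and 8439 kept the name in the file. The study's methods name no test of sources against clones. The 3 differences, each source minus the mean of its own 10 clones, were fitted with limma 3.58.1 (lmFit, eBayes) in R 4.3.3, tested on simulated data beforehand, with Benjamini-Hochberg adjustment. Other values were computed in Python 3.11.15. A gene was represented by the tested probe with the highest mean over 33 arrays. Array number limits the precision. A group with no array well above background gives a bound, set at the lowest signal well above background of each array or the probe's own where higher. These bounds hold for the main processing only. Over the alternatives the smallest differences were −6.70 in Pou5f1, −5.01 in Sox2, −4.96 in Nanog and 5.61 in F13a1.

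Named genes were, per direction, the 12 with the largest difference among shared genes without overlap that carry a symbol, up to 4 changed genes of each of 20 lists and 10 marker lists, 4 genes per direction for each source alone (of which 1 is not reported here), the transduced factors, Pdgfra, Ly6a, Nanog and the 5 lost genes highest in a clone group. Genes outside this rule (among them Col1a1, Cdh1, H2-K1, Zeb1, Zeb2, Klf2, Sycp3, Hormad1, Trim28 and the single macrophage, cartilage, bone and Hox genes) were chosen after their values were seen. The members and lists were chosen with earlier results of these data known. Alternatives were other fits (arrays pooled by group, origin as a term, slide as a random block), EB-3 in place of the clones, subsets of clones, stricter and absent filters, normexp background, quantile normalization, the deposited table and leaving out each array.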

Additional observations from a re-analysis of the deposited data

Results flagged for a closer look

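The sources moved in opposite directions from their own clones, each by at least 2-fold and outside the range of the 10 clones, in 202 genes for PαS and OP, in 636 genes for PαS and TTF and in 459 genes for OP and TTF. Each source had 1 array, so that the difference was not tested. Dixon's test for a single outlying value was also run in the groups of 5 clones. It used the median difference of a clone from the sources over the lost and the gained genes. None of the 12 groups of values passed its limit. This test cannot flag several clones that lie apart together. Over the gained genes, 4F-OP-iPS #1, #2 and #3 were at 2.21, 2.41 and 2.38 and #4 and #5 at 3.88 and 3.48.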

How the results depend on the processing

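No paired analysis was possible because the source arrays carry no replicate numbers that could be matched to clones, and the differences were instead taken within each origin. Probes higher and lower in the sources numbered 1297 and 2894 with all arrays, each source against its own clones. With the 33 arrays pooled in 7 groups they were 4355 and 6230, with origin as a term 4297 and 6117, and with slide as a random block 3939 and 5664. Summed over the 20 lists, the genes changed were 58 and 95 at first, and 155 and 169, 151 and 169, and 143 and 162 in these 3 fits, which use 33 arrays for the spread. With a 4-fold minimum 788 were higher, and 2278 lower, and 446 and 1790 were shared. With EB-3 in place of the clones 5657 and 7238 passed, 4736 and 5874 shared, with 206 and 154 list genes. With only 4-factor clones 861 were higher, 861 shared, and 1930 lower. With only probes well above background on all 33 arrays 1368 were lower, 1341 shared, and 42 list genes were lower. Quantile normalization gave 2256 higher and 2757 lower probes, so that 45.0% of the changed probes were higher against 30.9% at first, and 2085 higher ones were shared. The median difference of all probes was 0.04 under it, −0.26 under normexp and −0.10 at first.

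Leaving out PαS left no probe, 0 shared and 0 list genes, leaving out OP left 64 and 744 (56 and 716 shared, 8 and 48 list genes), and leaving out TTF left 812 and 2021 (565 and 1721 shared, 67 and 87 list genes). Over all arrays left out in turn, the higher probes ran from 0 to 1415 and the lower from 0 to 3060, the shared from 0 to 1404 and from 0 to 3044, and the list genes from 0 to 67 and from 0 to 97. For each source beside its own clones the counts were 4573 to 4664 above and 6609 to 6805 below in PαS (4596 and 6623 with all), 5018 to 5329 and 5708 to 6104 in OP (5040 and 5762), and 5001 to 5173 and 6968 to 7195 in TTF (5025 and 7015). Without a filter on dim probes 16708 were below in PαS and 16273 in TTF, with normexp 2908 were above in PαS, and over probes above background on all arrays 3759, 3450 and 4237 were below in PαS, OP and TTF.

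Of 109 named genes that changed, 77 did so under each of the 48 alternatives keeping the 3 sources and the clones that gave them a value (both other choices of probe and the restriction to probes above background on all arrays gave values for some genes only). Without PαS 0 did so, without OP 47 and without TTF 79. With EB-3 in place of the clones the difference turned positive in Col4a1 (3.04), Col4a2 (3.65), Eno2 (1.22), Hoxb2 (2.92), Cdh5 (0.041), Phex (0.611), Krt5 (1.07) and Pdgfra (7.02). It also turned in Olfr1364 with normexp (−0.254), in Myc with only 3-factor clones (0.525) and, over sources left out in turn, ran from −1.27 to 0.361 in Myc and from −0.74 to 0.198 in Pdgfra, positive without OP and without TTF. The cause was not tested. Signals near background leave only a bound for the 674 of 2009 gained genes well above background on no source, while 880 were measured on all 3, and differences of lost genes such as Cilp, Ctsk, Meox2, Aspn and Dpt rest on clone signals mostly near background.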
